A study of Clonorchis sinensis with 4 samples.

Results

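The 42 entries described here are predicted miRNAs of the Chinese liver fluke Clonorchis sinensis whose hairpin was placed on a scaffold of a related fluke and not on a C. sinensis scaffold. They were chosen from the 138 predicted miRNAs of the egg, metacercaria and adult tables as those with a scaffold name beginning NW_, LN or NC_, which held for 52. A set of 13 entries was left out beforehand with their stage counts known, and the 10 of them on such scaffolds include several of the largest stage differences there. The other 86 predicted miRNAs lie on scaffolds beginning DF14 (84 entries) or BADR (2 entries).

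The series holds 4 small RNA libraries of C. sinensis. They were made, 1 each, from eggs, from metacercariae (larvae in cysts in the flesh of freshwater fish), from adult worms and from the extracellular vesicles that adults release. Total RNA was taken with Trizol in each case. The labels name no host, strain, worm age or number of worms pooled. Without replicates each difference below is one between libraries, no test between stages was possible, and intervals are 95% intervals for counting error only. The libraries differed in miRNA tags, with 4339591 in the egg library (21.1% of annotated tags), 8559610 in the metacercaria library (41.8%), 3567193 in the adult library (18.4%) and 302004 in the vesicle library (12.8%). Levels are given as RPM of the library's miRNA tags with no length correction, since mature miRNAs are of nearly the same length.

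A miRNA is cut from a hairpin in a longer transcript by the nucleases Drosha and Dicer, and its seed, near the 5′ end, pairs with target mRNAs that are then repressed. Prediction from sequencing data looks for tags stacked on a genome segment that can fold into such a hairpin. Many miRNA hairpins are conserved among flatworms, so a tag of one fluke can also match the genome of a relative. The deposited names carry no sequence, target or family, and the entries are therefore described by position and tag count alone.

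A deposited scaffold table names the species on 1 scaffold of each kind, and scaffolds with the same prefix were taken to be of that species. The NW_0087 scaffolds are Opisthorchis viverrini, the Southeast Asian liver fluke closely related to C. sinensis, the LN scaffolds are Fasciola hepatica, the common liver fluke of livestock, and the NC_031 chromosomes are Schistosoma mansoni, a blood fluke. Of the 42 entries 31 lay on NW_ scaffolds, 10 on LN scaffolds and 1 on an NC_ chromosome. Their hairpins spanned 43 to 90 bases with a median of 60, against 39 to 87 with a median of 62 for the other 86 predicted miRNAs. Coordinates are given as deposited, and no assembly version is stated in the sources used here.

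The hairpins had no near neighbour on the same scaffold among predicted miRNAs. They lay on 41 scaffolds, and 0 of 42 had another predicted miRNA of the stage tables within 10 kb. The same count was 0 at 1 kb and at 100 kb, and 0 when the vesicle table's entries were added. Known miRNAs were not part of this search, so a known neighbour would have been missed. Distances were taken only between entries placed on the same scaffold. A neighbour in C. sinensis that was placed on another scaffold, or on that of another species, would also have been missed. Some hairpins lay near the start of a scaffold, as novel_mir89 at 223, novel_mir46 at 243 and novel_mir10 at 1274. There the search could not reach 10 kb on both sides. The only scaffold with 2 of the entries was NW_008751718, where novel_mir70 (375172 to 375248) and novel_mir130 (1002250 to 1002293) lay 627001 bases apart. novel_mir33 on NW_008751684 (1493005 to 1493091) shared its scaffold with novel_mir76, one of the entries left out, at a distance of 894426 bases. Among all 52 predicted miRNAs on these scaffolds 2 had a neighbour within 10 kb, both of them among those left out, and of the 86 others 0 had one. No piRNA entry lay on an NW_, LN or NC_ scaffold, of 3189 egg, 3853 metacercaria, 4573 adult and 208 vesicle entries.

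By weight of tags the 42 entries were most prominent in eggs. They held 12.70% of miRNA tags in eggs (12.67 to 12.73), 3.81% in adults (3.79 to 3.83), 3.62% in vesicles (3.56 to 3.69) and 2.49% in metacercariae (2.48 to 2.50). A single entry made most of the egg value. novel_mir73 held 73.4% of the 42 entries' tags in eggs, against 24.4% in metacercariae, 22.8% in adults and 94.97% in vesicles. Without novel_mir73 the share of miRNA tags was 3.38% for eggs, 1.88% for metacercariae, 2.94% for adults and 0.182% for vesicles. Without novel_mir73 and novel_mir70 the egg share was no longer the highest, at 1.63% against 1.71% in metacercariae and 2.39% in adults.

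Both large groups of scaffolds held their greatest share in eggs, which in the NW_ group rested on novel_mir70. The 10 LN entries took 10.0% of miRNA tags in eggs, 1.38% in adults and 1.17% in metacercariae, and without novel_mir73 the other 9 took 0.696%, 0.517% and 0.566%. The 31 NW_ entries took 2.68% in eggs, 2.42% in adults and 1.32% in metacercariae, led by novel_mir70 in eggs (65.2% of their tags), novel_mir5 in adults (32.5%) and novel_mir79 in metacercariae (42.1%). Without novel_mir70 the other 30 NW_ entries took 0.932% in eggs, 1.87% in adults and 1.14% in metacercariae, so that eggs were lowest. The NC_ entry, novel_mir157, held 49 tags in eggs and was unlisted elsewhere.

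**Figure D1:**
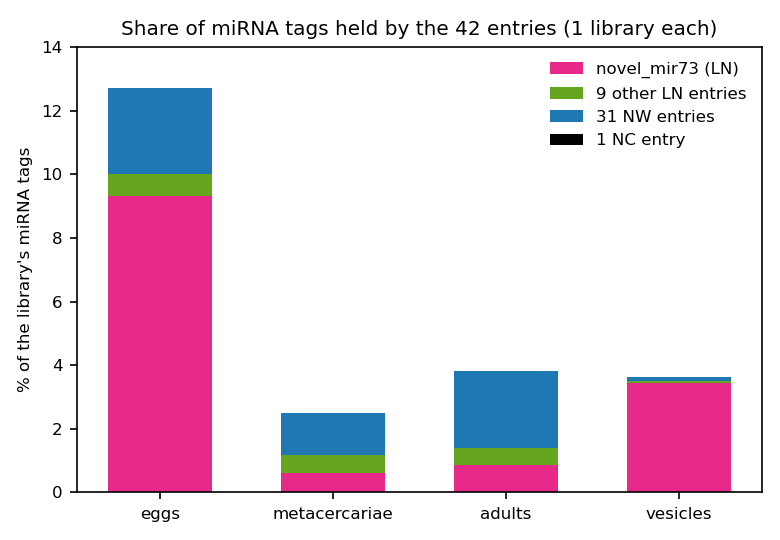
Stacked bars give the percent of each library's miRNA tags (vertical axis) held by novel_mir73, the other 9 LN entries, the 31 NW_ entries and the NC_ entry, with 1 library per bar and no error bars. The egg bar reaches 12.7% and is mostly novel_mir73, while the metacercaria, adult and vesicle bars end at 2.49%, 3.81% and 3.62%.

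A few abundant entries stood above a long tail. In every stage 8 entries held at least 1000 tags, and 18 stayed under 100 tags in every stage. The most abundant was novel_mir73 on LN627598 (1961 to 2031), with 404503 egg tags, 52033 metacercaria tags and 30953 adult tags, which placed it 4th, 17th and 18th among all miRNAs of those libraries. novel_mir70 followed with 75953 egg tags, 15332 metacercaria tags and 19623 adult tags. Both held their most tags in the egg library.

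novel_mir5 on NW_008751659 (2542361 to 2542417) held nearly equal counts, 25203 in eggs, 25822 in metacercariae and 28068 in adults. As RPM of miRNA tags these were 5808, 3017 and 7868, since metacercariae held the most miRNA tags. Its order of stages therefore rests on the scaling, with a metacercaria to adult log2 ratio of -1.38 by miRNA tags and -0.20 by annotated tags.

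Among the 7 most abundant entries, 3 held the most tags in metacercariae. novel_mir79 on NW_008751879 (290152 to 290241) had 7362 egg tags, 47497 metacercaria tags and 11063 adult tags. novel_mir77 on LN627470 (53682 to 53734) had 17636, 26087 and 10098 in the same order. novel_mir84 on LN628271 (69761 to 69830) had 3353, 14787 and 5884. As RPM novel_mir79 was highest in metacercariae (5549), novel_mir77 in eggs (4064), and novel_mir84 had like values in metacercariae (1728) and adults (1649) above eggs (773).

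novel_mir10 on NW_008753117 (1274 to 1333) held its most tags in adults, with 4169 egg tags, 6872 metacercaria tags and 18138 adult tags. novel_mir156 on NW_008751971 (173670 to 173719) was scarce in eggs, with 635 tags against 12024 in metacercariae and 4394 in adults. novel_mir100 on LN627295 (636174 to 636246) led in eggs, with 8133 tags against 3960 in metacercariae and 1579 in adults. These 3 entries took different stages as their highest library.

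Of the next 3 entries by summed tags, novel_mir139 on LN628343 (37311 to 37381) had 889 egg tags, 3049 metacercaria tags and 319 adult tags. novel_mir19 on NW_008751692 (1100691 to 1100737) had 769, 1002 and 745, and novel_mir135 on NW_008751717 (1808710 to 1808790) had 560, 393 and 1188. novel_mir139 was lowest in adults and novel_mir135 highest there, while novel_mir19 held similar counts in all 3 libraries.

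**Figure D2:**
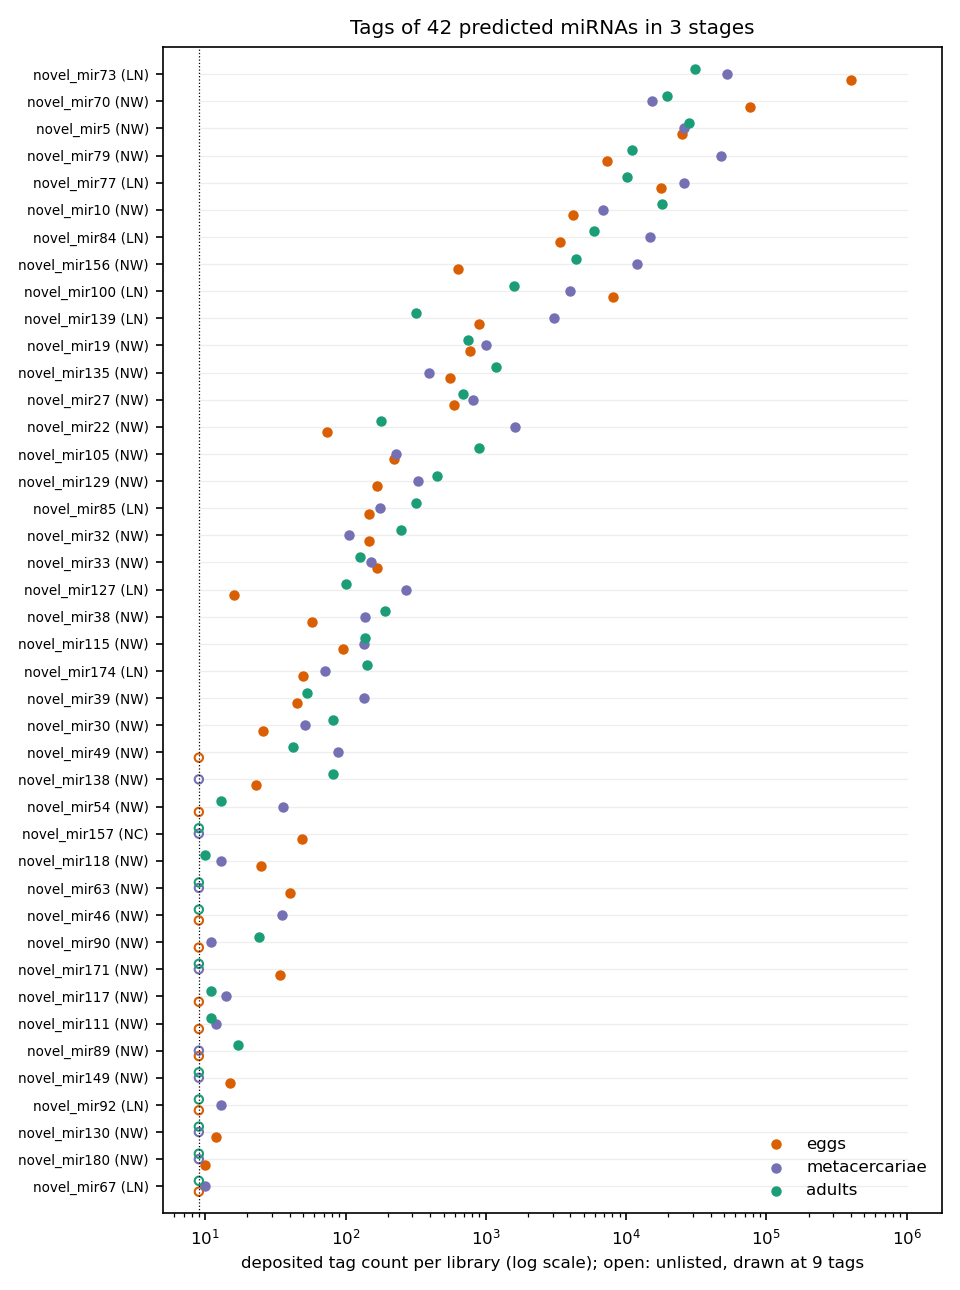
Each row is 1 of the 42 entries with its scaffold prefix in brackets, ordered by summed tags, and points give the deposited tag count in eggs, metacercariae and adults on a log axis. Open points at the dotted line mark entries unlisted in a library, drawn at 9 tags. Counts run from 404503 for novel_mir73 in eggs down to the listing minimum of 10, with the unlisted points all in the lower rows.

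Presence followed abundance. A predicted miRNA was listed from 10 tags upward in every library, so an unlisted one can still have 9. Of the 42 entries 26 were listed in all 3 stages, 6 in 2 and 10 in 1. Summed over stages, the 26 had 48 to 487489 tags with a median of 1985, the 6 had 23 to 131 with a median of 42, and the 10 had 10 to 49 with a median of 16. Of the NW_ entries 18 of 31 were listed in every stage and of the LN entries 8 of 10.

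The 6 entries listed in 2 stages were all on NW_ scaffolds. 5 were listed in metacercariae and adults but not in eggs. The best covered of them was novel_mir49, with 89 and 42 tags, and the other 4 (novel_mir54, novel_mir90, novel_mir111 and novel_mir117) had 11 to 36 tags. novel_mir138 (866342 to 866391 on NW_008751852) had 23 tags in eggs and 82 in adults and was unlisted in metacercariae. No entry was listed in eggs and metacercariae alone.

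Of the 10 entries listed in 1 stage, 6 were in eggs, 3 in metacercariae and 1 in adults. In eggs these were novel_mir157 on the S. mansoni chromosome NC_031502 (21860172 to 21860230) with 49 tags, novel_mir63 on NW_008751759 (37274 to 37340) with 40, novel_mir171 with 34, novel_mir149 with 15, novel_mir130 with 12 and novel_mir180 with 10. The metacercaria entries were novel_mir46 with 35 tags, novel_mir92 on LN627581 (58691 to 58761) with 13 and novel_mir67 with 10, and the adult entry was novel_mir89 with 17. All of these counts lie between 10 and 49 tags, and the listing minimum of 10 was 2.30 RPM in eggs, 1.17 in metacercariae and 2.80 in adults.

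At 1 level for all stages, 3 RPM, 25 entries reached it in every stage, 3 in 2 stages, 10 in 1 and 4 in none. Among the 86 other predicted miRNAs 34 (39.5%) were listed in every stage, against 61.9% of the 42, and 33 in 1 stage, of which 23 were in metacercariae. Median summed tags were 377.5 for the 42 and 108.5 for the 86, and listing depends on the tag count. The listing minimum was also at its lowest RPM in metacercariae, 1.17 against 2.30 in eggs and 2.80 in adults. These shares are given without a test, and the part of abundance and library size in them was not tested.

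**Figure D3:**
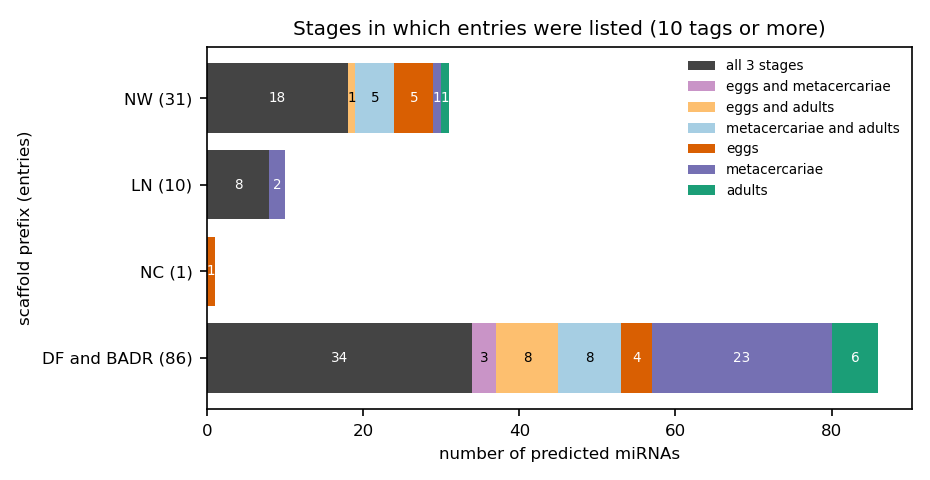
Bars count the predicted miRNAs of each scaffold prefix (vertical axis, number of entries in brackets) by the stages in which they were listed with 10 or more tags. The NW and LN bars are mostly entries of all 3 stages (18 of 31 and 8 of 10), and the DF and BADR bar includes 23 entries listed in metacercariae only.

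Eggs, the embryo-bearing stage shed by adult worms, were first set against adults. Of the 39 entries listed in either library 2 were counted as higher in eggs, both on LN scaffolds, and 5 as lower, of which 4 were on NW_ scaffolds. An entry was counted when its fold was at least 4 on RPM with a pseudocount of 1, 10 or more tags stood in the library where it was higher and the counting interval of the ratio lay beyond 2-fold. Over all 167 miRNAs the same rule counted 6.59% as higher and 21.0% as lower. The 167 include the entries left out beforehand, several with large stage differences. These shares are therefore not a like background for the 39. Folds below are plain ratios of RPM, and log2 values include the pseudocount. The median log2 ratio was -0.60 for the 39 entries and -0.60 for all 167 miRNAs.

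novel_mir73 was 10.7-fold higher in eggs (10.6 to 10.9) and novel_mir100 was 4.23-fold higher (4.01 to 4.47), though novel_mir100 was under the fold limit when the most abundant miRNA of each library was left out of the scaling (log2 1.96). Lower in eggs were novel_mir156 by 8.42-fold (7.74 to 9.16), novel_mir127 by 7.60-fold on 16 against 100 tags (4.46 to 13.8), novel_mir10 by 5.29-fold (5.12 to 5.48) and novel_mir105 by 4.95-fold on 221 against 900 tags (4.27 to 5.77). novel_mir49, unlisted in eggs and with 42 tags in adults, was at least 5.68-fold lower, taking 9 egg tags (2.72 to 13.3). With annotated tags novel_mir127 (log2 -1.79) and novel_mir49 (-1.14) were no longer counted. With median-of-ratios size factors, which centre the log2 ratios of the miRNAs listed in all stages, novel_mir156 alone of these lower entries was still counted (log2 -2.29), and novel_mir10 and novel_mir105 stood at -1.62 and -1.51. novel_mir70, 3.18-fold higher in eggs, was counted as higher with those factors (2.45).

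Metacercariae against adults compares the dormant larva in fish with the worm of the bile duct. Of 36 entries listed in either library 0 were counted as higher in metacercariae and 7 as lower, 5 on NW_ and 2 on LN scaffolds. Over all 182 miRNAs, again with the entries left out beforehand among them, 9.34% were counted as higher and 23.6% as lower. The median log2 ratio was -0.80 for the 36 entries and -0.75 for all miRNAs. This direction turned with the authors' scaling to annotated tags, where 3 entries were counted as higher and 0 as lower and the median was 0.11 for both the 36 entries and all miRNAs.

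The smaller of the lower entries were novel_mir32 on NW_008751683, with 148 egg tags, 106 metacercaria tags and 249 adult tags, novel_mir85 on LN627168, with 147, 177 and 319, and novel_mir174 on LN632223, with 50, 71 and 142. Each held its most tags in adults. By fold the order was novel_mir105 on 228 against 900 tags by 9.47-fold (8.18 to 11.0), novel_mir135 by 7.25-fold (6.47 to 8.15), novel_mir10 by 6.33-fold (6.16 to 6.51), novel_mir32 by 5.64-fold (4.47 to 7.14), novel_mir174 by 4.80-fold (3.58 to 6.47) and novel_mir85 by 4.32-fold (3.59 to 5.23). novel_mir138, unlisted in metacercariae and with 82 tags in adults, was at least 21.9-fold lower, taking 9 metacercaria tags (11.0 to 49.5). Of these 7, novel_mir105 and novel_mir138 stayed counted by median-of-ratios scaling (log2 -2.36 and -2.87). Just short of the limit on the other side were novel_mir139, with a ratio of 3.98 (3.55 to 4.48), and novel_mir22 on NW_008751696 (614687 to 614746), with 1619 tags in metacercariae against 178 and a ratio of 3.79 (3.25 to 4.45). Both were counted as higher with annotated tags (log2 3.10 and 2.98) and by median-of-ratios scaling (2.82 and 2.74).

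Between eggs and metacercariae entries were counted in both directions. Of 41 listed in either library 6 were counted as higher and 3 as lower in eggs. The rule counted 16.1% of all 186 miRNAs as higher and 16.1% as lower, the entries left out beforehand included. The median log2 ratio was 0.45 for the 41 entries and 0.22 for all miRNAs, and both turned negative with annotated tags (-0.23 and -0.43).

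novel_mir73 was 15.3-fold higher in eggs (15.2 to 15.5), novel_mir70 was 9.77-fold higher (9.60 to 9.94) and novel_mir100 was 4.05-fold higher (3.90 to 4.21). novel_mir100 missed the limit by median-of-ratios scaling (log2 1.95) and with annotated tags (1.03). The other 3 were listed in eggs alone and rest on a bound at 9 metacercaria tags. novel_mir157 was at least 10.7-fold (5.22 to 24.9), novel_mir63 at least 8.77-fold (4.19 to 20.5) and novel_mir171 at least 7.45-fold (3.50 to 17.7) higher. They were not counted with annotated tags (log2 1.23, 1.03 and 0.88). Lower in eggs were novel_mir22 by 11.1-fold on 74 against 1619 tags (8.78 to 14.2), novel_mir156 by 9.60-fold (8.86 to 10.4) and novel_mir127 by 8.62-fold on 16 against 272 tags (5.21 to 15.3), and these 3 were counted under each of the other scalings.

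**Figure D4:**
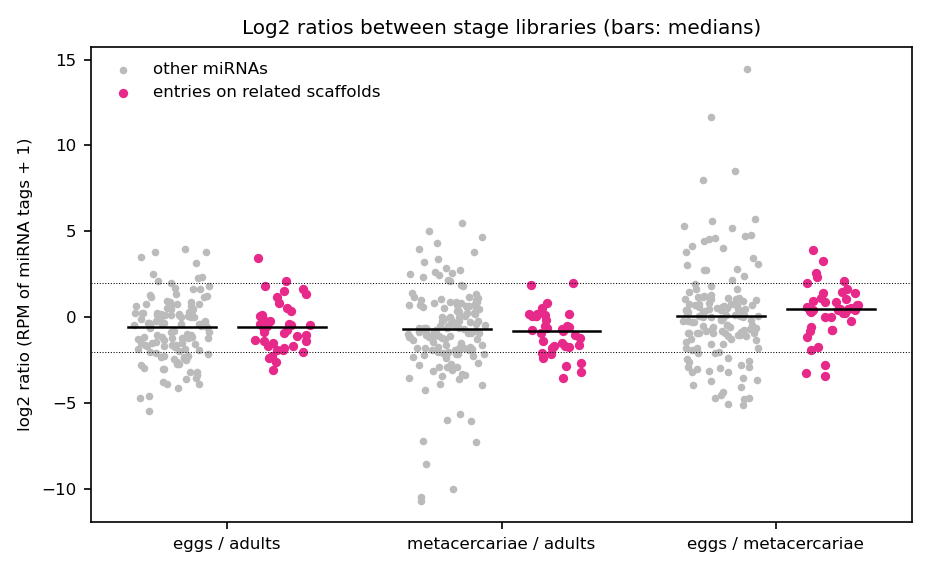
Points give the log2 ratio of RPM of miRNA tags, with 1 RPM added, between 2 stage libraries for the entries on related scaffolds and, in grey, for the other miRNAs, with bars at the medians and dotted lines at the 4-fold limit. For eggs over adults the entries range from -3.06 to 3.43. The entries left out beforehand, several with large stage differences, are among the grey points, so the ranges are not compared.

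The comparisons share libraries, so they are set side by side and not added up. novel_mir73 was counted as higher in eggs against both other stages under each scaling, pseudocount and level filter tried, and novel_mir156 as lower in eggs against both. novel_mir10 and novel_mir105 were counted as lower than adults in both other stages by miRNA tags, and neither was counted against metacercariae. The entries left out beforehand include larger ratios. Those on the same scaffolds were then added, a calculation chosen after seeing the data. For eggs against adults 4 of 49 entries were counted as higher and 9 as lower. The counts were 0 and 15 of 46 for metacercariae against adults, and 13 and 6 of 51 for eggs against metacercariae. Over all miRNAs, in the same order, the shares were 6.59% and 21.0%, 9.34% and 23.6%, and 16.1% and 16.1%.

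Vesicles shed by adult worms held 7 of the 42 entries, matched by overlapping coordinates because the vesicle table numbers its predictions anew. The overlap covered the whole stage hairpin in each, from 50 to 90 bases. Vesicles were set against adults over 51 miRNAs present in both tables and scaled to their sum, where the size rule counted 11.8% as higher and 43.1% as lower. Of the 7 entries 0 were counted as higher and 3 as lower. The shares for all 51 are not a like background for these counts. Known miRNAs were listed from 1 vesicle tag and predicted ones only from 10, so strongly lower entries could drop out of the 7. Of the 15 predicted entries among the 51, all under that minimum rule, those besides the 7 went both ways. By their stage names novel_mir34, novel_mir40 and novel_mir141 were counted as higher. Counted as lower were novel_mir3, novel_mir12 and novel_mir75.

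novel_mir73 held 10394 vesicle tags and 30953 adult tags, a ratio of 3.62 (3.54 to 3.70). It was counted as higher when miR-71a-5p, the most abundant vesicle miRNA, and bantam, the most abundant adult one, were left out of the scaling (7.88-fold) and with median-of-ratios scaling (10.4-fold). The 3 lower entries were novel_mir70 by 86.8-fold on 21 against 19623 tags (56.7 to 140), novel_mir10 by 58.1-fold on 29 against 18138 (40.4 to 86.7) and novel_mir79 by 48.9-fold on 21 against 11063 (32.0 to 79.0). These 3 were at least 17.0-fold lower under each scaling tried.

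The remaining matches were below their adult share by less than 4-fold. novel_mir156 had 260 vesicle tags and a ratio of 0.637 (0.560 to 0.722), novel_mir105 had 48 and 0.574 (0.420 to 0.768), and novel_mir84 had 171 and 0.313 (0.267 to 0.364). The first 2 of these directions turned with median-of-ratios scaling (ratios of 1.83 and 1.65) and without the most abundant entries (1.39 and 1.25), and novel_mir84 was counted as lower with annotated tags (4.19-fold). The matched entries thus spanned ratios from 0.0115 for novel_mir70 to 3.62 for novel_mir73, a range that leaves out abundant adult entries with no vesicle match.

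The other 26 entries listed in adults had no overlapping vesicle entry. Of all 99 predicted miRNAs listed in adults 15 had one, and of the 33 described here 7 did. Scaled to the shared miRNAs, 15 of the 26 would have reached the listing minimum of 10 tags at their adult share. This count and the folds below would move with another scaling. The most abundant were novel_mir5, with 28068 adult tags and 2606 expected vesicle tags, and novel_mir77, with 10098 and 938, which at these coordinates were at least 290-fold and 104-fold lower. Whether the same tags stand under another position among the 12 unmatched vesicle predictions was not tested, since the files hold no sequence for these entries. The vesicle library also held all 13 of 13 vertebrate host miRNA families looked for, at 6478 RPM of annotated tags against 44.8 in adults, where 8 of 13 were listed, and their part in these ratios was not tested.

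**Figure D5:**
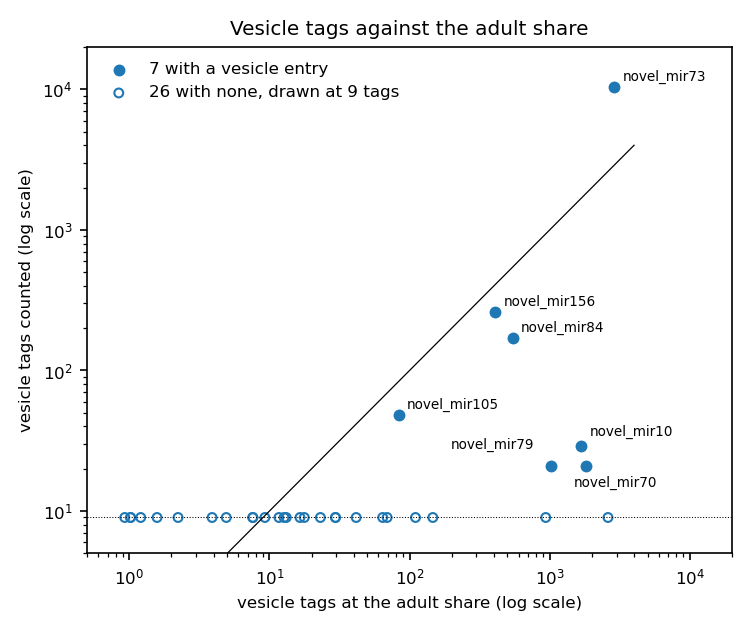
For the 33 entries listed in adults, the horizontal axis gives the vesicle tags that the adult share would yield and the vertical axis the vesicle tags counted, both on log axes, with the line of equality and a dotted line at 9 tags. novel_mir73 lies above the line, novel_mir10, novel_mir70 and novel_mir79 lie far below it at 21 to 29 tags, and open points at 9 tags are the 26 entries with no vesicle entry.

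The scaffold table of the vesicle library put each mapped tag on 1 scaffold, since its scaffold counts sum to the 2235582 mapped tags. It placed 65.8% of them on DF scaffolds, 17.1% on NW_008, 10.5% on LN, 3.90% on NC_031, 1.62% on NW_017 and 1.01% on BADR scaffolds. In 3 of the 7 matched entries the entry's own count was above the count of its whole scaffold. novel_mir73 had 10394 tags against 4185 on LN627598, novel_mir84 had 171 against 74 on LN628271, and novel_mir156 had 260 against 247 on NW_008751971. At least 6209 of the novel_mir73 tags were thus not counted on that scaffold, so the entry and scaffold counts were not made from the same placement of tags. The reverse held for novel_mir10, with 29 of the 4233 tags on NW_008753117. Of all 27 vesicle predictions 5 exceeded their scaffold in this way.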

How the data were processed

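Each library's small RNA tags were deposited by the authors as raw tag counts per miRNA entry beside RPM of annotated tags, per the file headers. The deposited RPM was recomputed from the counts to within 0.005. No source used here gives the aligner, the miRNA predictor, the genome builds or the handling of a tag with several matches. From the counts, RPM of miRNA tags was computed with Python 3.11.15, pandas 2.3.3 and SciPy 1.17.1, figures were drawn with matplotlib 3.10.9, and 95% intervals are exact binomial ones. Tags carry no molecular identifiers, so intervals cover counting error only. An unlisted predicted miRNA was set to 9 tags. The count rule was tested on simulated data.

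Vesicle entries were matched by an overlap of at least 1 base. In 1 deposited column the values belong to another species' vesicles, and it was not used. Named in full are the 12 entries with the most summed tags, the 5 largest folds each way per comparison, the vesicle matches, and per prefix the top entry listed in 1 stage. Members and lists were chosen with earlier results of these data known. Alternatives were 3 other scalings, a pseudocount of 5 RPM, a mean of at least 10 RPM, other listing levels, overlaps and distances.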

Additional observations from a re-analysis of the deposited data

How the results depend on the processing

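The counts of entries past the size rule depended most on the scaling. Against adults, 2 entries were higher in eggs by miRNA tags, 5 with median-of-ratios size factors and 1 without the most abundant miRNA of each library. The 5 lower entries became 3 with annotated tags, 1 with median-of-ratios size factors and 3 with a pseudocount of 5 RPM. They became 4 with a mean of at least 10 RPM and rose to 7 without the most abundant miRNA of each library. In metacercariae the 0 higher and 7 lower entries became 3 and 0 with annotated tags and 2 and 2 with median-of-ratios size factors. For eggs against metacercariae the 6 higher entries became 2 with annotated tags, 3 with a pseudocount of 5 RPM and 3 with a mean of at least 10 RPM, and the 3 lower entries became 5 with annotated tags. Over all miRNAs annotated tags moved the median log2 ratio from -0.60 to -0.23, from -0.75 to 0.11 and from 0.22 to -0.43 in these comparisons, and median-of-ratios size factors moved it to 0.03, -0.09 and 0.19. By construction, adding the entries left out beforehand, chosen after seeing the data, gave 4, 9, 15, 13 and 6 where the counts had been 2, 5, 7, 6 and 3. Of 116 log2 ratios of single entries, 98 kept their side of the limit with annotated tags, 100 with median-of-ratios size factors, 109 with a pseudocount of 5 RPM and 113 without the most abundant miRNA, and none that was counted changed sign. Counted or not, annotated tags turned the sign of 1 of 39, 10 of 36 and 16 of 41 ratios, with the comparisons in the order above. Median-of-ratios size factors turned 7, 4 and 2, and leaving out the most abundant miRNA turned 0, 4 and 0.

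With at least 30 tags as the listing level, 6 entries in place of 10 were in 1 stage. The share of tags was 2.68% in eggs, 1.04% in metacercariae and 0.700% in adults when taken of annotated tags. After seeing the data it was also taken without novel_mir73, which gave 3.38%, 1.88% and 2.94%, and without novel_mir73 and novel_mir70, which gave 1.63%, 1.71% and 2.39%. For the NW_ entries without novel_mir70 it was 0.932%, 1.14% and 1.87%. Also added after seeing the data, the scaling for vesicles without the most abundant miRNAs and the median-of-ratios one each counted 1 entry (novel_mir73) as higher in vesicles, where scaling to the shared miRNAs counted 0. No paired analysis was possible because each group has 1 library. At 10 tags, the listing minimum, a count is too low to place an entry in 1 stage, and in vesicles that minimum was 33.1 RPM of miRNA tags.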

Other observations

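The vesicle table also listed 6 predicted miRNAs on related fluke scaffolds that overlapped no stage entry. The most abundant, at 128240 to 128281 on the O. viverrini scaffold NW_008751668, had 2013 tags, and the next, on the F. hepatica scaffold LN627112, had 91. The other 4, all on NW_ scaffolds, had 10 to 23 tags, at or just over the listing minimum.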
